A study of Mus musculus with 2 samples.

Results

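The 9 genes described here belong to the Notch pathway: the receptors Notch1, Notch2 and Notch3, the ligands Dll1, Dll3 and Jag1, and the transcriptional targets Hes1, Hes5 and Hey1. They were taken as the features that carry these symbols in both count matrices, 9 of the 32285 genes counted in each. Slide-tags, in which nuclei of a frozen tissue section take up spatial barcodes before droplet sequencing, had been applied to a section of 20 µm thickness from each of 2 tissues. The adult library came from the hippocampus of a male mouse aged 56 days, of the inbred strain C57BL/6J. The embryonic library came from the brain of a purchased C57BL/6J embryo at embryonic day 14 (E14), cut sagittally. Neither animal carried a transgene or had been treated, as far as the labels and methods say, and where the nuclei lay in the sections is not analysed here. The design asks which cell classes hold receptor, ligand and target RNA in the embryo and in the adult. With 1 library per tissue there is no replicate, so no test was made, single nuclei stand in for no replicate, and every interval below covers counting error only.

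Notch receptors are membrane proteins that a Delta or Jagged ligand on a neighbouring cell activates; proteolysis then frees an intracellular part that enters the nucleus and, with the DNA-binding protein RBPJ and a Mastermind coactivator, switches on Hes and Hey genes. In the embryonic brain the pathway is known for keeping radial glia, the neural stem cells of the ventricular zone, from becoming neurons, while neighbouring cells that begin to differentiate display Dll1 under the control of proneural factors. Outside the neural lineage it is known for its parts in blood vessels and their mural cells, in the choroid plexus and, in the adult, in astrocytes and neural stem cells.

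Stretches of 250 bases just upstream of RefSeq transcription starts are shown for a pair of genes. Hes5 is the target with the largest ratio between classes. Dll1 is the ligand that was at least 2-fold higher in intermediate progenitors than in radial glia. The Hes5 stretch, chr4:154960673-154960922 on the plus strand of GRCm38.p6, has in capitals its matches to TGGGAA, a short form of the RBPJ motif, read on both strands. The Dll1 stretch, chr17:15376933-15377182 on the minus strand, has in capitals its matches to CAGCTG and to the related CAGGTG, letters that proneural factors are known to bind, also read on both strands.
Hes5: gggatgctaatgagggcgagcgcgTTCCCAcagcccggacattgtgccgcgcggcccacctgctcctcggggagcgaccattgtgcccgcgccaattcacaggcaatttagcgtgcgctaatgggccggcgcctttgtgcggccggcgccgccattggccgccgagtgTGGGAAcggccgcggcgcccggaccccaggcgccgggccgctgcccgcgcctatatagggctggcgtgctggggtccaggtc
Dll1: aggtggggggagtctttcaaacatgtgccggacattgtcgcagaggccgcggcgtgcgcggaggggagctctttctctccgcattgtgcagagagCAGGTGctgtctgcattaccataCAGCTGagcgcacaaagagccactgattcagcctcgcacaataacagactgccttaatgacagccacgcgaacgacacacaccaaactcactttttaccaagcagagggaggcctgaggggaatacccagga
In Hes5 the matches began 226 and 82 bases before the start, and 2.77% of all 32851 such windows held TGGGAA at least 2 times (21.6% at least once). In Dll1 the CAGGTG match began 155 and the CAGCTG match 132 bases before the start, against 17.2% and 13.0% of all windows with each. CAGCTG reads the same on both strands, so each match counts once. Another Dll1 window held neither, while the Jag1 window held the palindrome, the Dll3 window both, and the Hes5 window CAGGTG alone, left in lower case above. TGGGAA was in none of the windows of the other 6 genes. CACNAG, the letters of the site that Hes proteins are known to bind, was in the Notch1, Notch2 and Notch3 windows, against 36.7% of all windows. In all, 7 of the 9 genes were matched in the RefSeq table, with 8 windows, and Hes1 and Hey1 had no entry. Such matches describe the sequence and are neither binding sites nor causes.

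The genes lie on GRCm38 (mm10) as follows, by GENCODE vM21, and each is protein-coding. Notch1 (ENSMUSG00000026923) lies on the minus strand of chr2:26457903-26516663, Notch2 (ENSMUSG00000027878) on the plus strand of chr3:98013527-98150361 and Notch3 (ENSMUSG00000038146) on the minus strand of chr17:32120820-32166852. Dll1 (ENSMUSG00000014773) lies on the minus strand of chr17:15367354-15376872, Dll3 (ENSMUSG00000003436) on the minus strand of chr7:28293553-28302238 and Jag1 (ENSMUSG00000027276) on the minus strand of chr2:137081456-137116644. Hes1 (ENSMUSG00000022528) lies on the plus strand of chr16:30064384-30067796, Hes5 (ENSMUSG00000048001) on the plus strand of chr4:154960923-154962371 and Hey1 (ENSMUSG00000040289) on the minus strand of chr3:8663359-8667256. Notch1, Notch3, Dll1 and Hes5 overlap annotated transcripts on the opposite strand, and Notch1 and Notch2 others on their own strand, so reads shared within these overlaps are uncertain. Since intronic reads were counted and gene lengths differ, levels are compared between cell classes for 1 gene and not between genes.

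The E14 library held 9036 nuclei and 58923882 unique molecular identifiers (UMIs, single captured RNA molecules), with a median of 4204 UMIs per nucleus, and the adult library 1609 nuclei and 15346746 UMIs, with a median of 6607. The libraries shared 1 barcode sequence. Each nucleus was placed in a class by the UMIs of marker genes that include none of the 9 genes and no other gene of the pathway. Between 6 and 8 markers of the list stood out in radial glia, intermediate progenitors, endothelial, mural and choroid plexus nuclei of the embryo and in adult astrocytes, where standing out means a UMI in at least 10% of the nuclei at 2 times the level of the rest or more. Fewer did so in E14 thalamic neurons (4 of 6) and hypothalamic neurons (3 of 7). In neurons that met only the pan-neuronal list it was 1 of 8 in the embryo and 0 of 6 in the adult. There the rest includes the other neurons. These were 2934 of the 5256 E14 neurons and 70 of the 750 adult neurons. In the embryo 2399 nuclei met no list and 207 met lists that could not be ranked, and in the adult 205 and 119. The 2399 embryonic nuclei that met no list held between 20.1% and 31.9% of the UMIs of each of the 9 genes, against 23.7% of all UMIs. In the adult, 16 nuclei that met the choroid plexus list had no UMI of Folr1, Clic6 or Otx2 and were left unnamed.

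In the E14 library Notch1 gave 2614 UMIs, Notch2 4012, Notch3 2137, Dll1 980, Dll3 591, Jag1 727, Hes1 1437, Hes5 1187 and Hey1 506. Levels by class are given as CPM, a gene's UMIs in all nuclei of the class per 1000000 UMIs of the class, with a 95% exact Poisson interval.

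Notch1, the receptor best known for stem cell maintenance and for vessel growth, was highest in radial glia, at 199 CPM (184 to 214). Mural nuclei followed with 165 CPM (115 to 230), endothelial nuclei with 145 (123 to 171) and intermediate progenitors with 133 (116 to 153). Each of these 4 intervals overlapped with the next, and all lay above those of the other 10 classes. Erythroid nuclei, a class that should lack the gene, had 63.9 CPM (44.8 to 88.5), of which 20 of 36 UMIs lay in a single nucleus. Among neurons Notch1 ran from 11.4 CPM (9.99 to 13.0) in those that met only the pan-neuronal list to 43.7 CPM (37.1 to 51.2) in forebrain GABAergic neurons. The GABAergic level was 3.09 times (2.35 to 4.08) that in thalamic neurons. Choroid plexus nuclei had 22.4 CPM (14.6 to 32.8) and fibroblasts 18.2 (9.94 to 30.5), within the neuronal range.

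Notch2 had another order of classes. Choroid plexus epithelium, which secretes cerebrospinal fluid, had 635 CPM (590 to 682), from 738 UMIs in 59 of 74 nuclei with at most 80 in a single nucleus. That was 3.15 times (2.84 to 3.51) the level in radial glia and 29.7 times (26.8 to 32.9) the level in neurons. Fibroblasts had 240 CPM (207 to 278) and radial glia 201 (186 to 217), whose intervals overlapped, and intermediate progenitors had 133 (116 to 152). Microglia or macrophages had 112 CPM (75.7 to 160), mural nuclei 94.5 (57.7 to 146) and endothelial nuclei 60.3 (46.2 to 77.5). In neurons Notch2 had 21.4 CPM (19.8 to 23.0). Choroid plexus nuclei were deep, with a median of 11941.5 UMIs. After each nucleus was thinned to 1000 UMIs, 47.2% of them (exact binomial interval 35.3 to 59.3, n = 72) held a Notch2 UMI, against 17.2% (13.9 to 21.0, n = 458) of radial glia, 7.69% (2.54 to 17.0, n = 65) of microglia or macrophages and 1.51% (1.18 to 1.90, n = 4769) of neurons. Unthinned, the shares were 79.7%, 56.9%, 29.2% and 8.14%.

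Notch3, known as the receptor of vascular mural cells, was highest in that class, the pericytes and smooth muscle cells around vessels. Mural nuclei had 350 CPM (274 to 439), from 74 UMIs in 23 of 36 nuclei, which was 5.52 times (3.90 to 7.84) the endothelial level of 63.3 CPM (48.8 to 80.8). Radial glia came next with 126 CPM (114 to 138) and did not overlap with either neighbour in the order. Intermediate progenitors had 68.6 CPM (56.3 to 82.8), choroid plexus nuclei 60.2 (46.9 to 76.1) and fibroblasts 54.6 (39.3 to 73.8). Neurons had 17.2 CPM (15.9 to 18.7), with 24.5 (20.7 to 28.9) in thalamic neurons. The endothelial marker list stood at 1040 CPM in mural nuclei, against 4370 in endothelial nuclei, and the mural list at 402 CPM in endothelial and 2750 in mural nuclei, so each class held some RNA of the other. The part of this in the Notch3 values was not tested.

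The ligands fell into separate classes. Dll1, the Delta ligand of differentiating neural cells, was highest in intermediate progenitors, the neuron-producing daughters of radial glia, at 69.2 CPM (56.9 to 83.5). This interval lay above those of the other 13 classes. Radial glia had 31.8 CPM (26.1 to 38.4), cortical excitatory neurons 25.2 (19.1 to 32.7), Cajal-Retzius neurons 23.3 (13.0 to 38.4) and forebrain GABAergic neurons 21.3 (16.8 to 26.7), and these overlapped. Endothelial nuclei had 7 Dll1 UMIs and mural nuclei 0, which allows up to 14.2 CPM at 3 counts.

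Dll3, a divergent Delta protein known to act inside the cell rather than as an activating ligand, was highest in forebrain GABAergic neurons, at 28.0 CPM (22.8 to 34.1). That was 6.76 times (4.30 to 11.0) the level of 4.15 CPM (2.66 to 6.17) in thalamic neurons. Radial glia had 19.1 CPM (14.8 to 24.4), whose interval overlapped with the GABAergic one. Erythroid nuclei had 17.8 CPM (8.52 to 32.7) from 10 UMIs, of which 6 were in a single nucleus, and this interval also overlapped with those of GABAergic neurons and radial glia.

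Jag1, a Jagged ligand known from vessels and mesenchyme, was highest in mural nuclei at 94.5 CPM (57.7 to 146), endothelial nuclei at 77.2 (61.0 to 96.3) and fibroblasts at 65.0 (48.2 to 85.6). These overlapped with each other and lay above the other 11 classes. Radial glia had 33.0 CPM (27.2 to 39.7) and intermediate progenitors 11.3 (6.72 to 17.9). Jag1 and Dll1 thus differed in opposite directions between the 2 progenitor classes. In neurons Jag1 had 5.95 CPM (5.16 to 6.83), and thalamic neurons, at 11.4 (8.82 to 14.5), had the highest neuronal level.

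Of the targets, Hes1 had about the same level in vessels and stem cells. Endothelial nuclei had 91.0 CPM (73.4 to 112), mural nuclei 89.8 (54.0 to 140) and radial glia 86.9 (77.3 to 97.4), and these intervals overlapped. Intermediate progenitors had 57.9 CPM (46.7 to 71.0) and choroid plexus nuclei 43.9 (32.7 to 57.7). Neurons had 8.65 CPM (7.69 to 9.69).

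Hes5, a target known from neural progenitors, had 103 CPM (92.6 to 114) in radial glia and 47.2 (37.1 to 59.2) in intermediate progenitors, and both lay above all classes below them in the order. In endothelial nuclei it had 9.89 CPM (4.74 to 18.2), in neurons 8.62 (7.66 to 9.66), in microglia or macrophages 7.48 (0.906 to 27.0) and in mural nuclei 0, where 3 counts would be 14.2 CPM. Vessel nuclei thus had Hes1 at the level of radial glia and Hes5 at the level of neurons. The ratio of endothelial nuclei to radial glia was 1.05 (0.819 to 1.33) for Hes1 and 0.0959 (0.0456 to 0.179) for Hes5. Both genes are counted over the same nuclei, and the part of depth in the 2 ratios was not tested.

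Hey1, a target known from vessels and heart, showed no such pattern. Its highest levels were 16.4 CPM (11.5 to 22.6) in cortical excitatory neurons and 15.8 (9.05 to 25.7) in endothelial nuclei, from 16 UMIs, and 14 classes in all lay between 0 and 16.4 CPM. Radial glia had 9.43 CPM (6.45 to 13.3), against 8.47 (7.52 to 9.51) in neurons.

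Erythroid nuclei, set beside the other classes as a rough background, were shallow, with a median of 751 UMIs. The class held 563123 UMIs, so its deeper nuclei hold most of the sum, and whether these are mixed was not tested. Erythroid nuclei had 76.4 CPM (55.3 to 103) of Notch2, from 43 UMIs in 17 of 102 nuclei, and 58.6 CPM (40.3 to 82.3) of Notch3. The Notch2 intervals of endothelial and mural nuclei and of microglia or macrophages overlapped with the erythroid one. So did the Notch3 intervals of endothelial nuclei, intermediate progenitors, choroid plexus nuclei and fibroblasts. These levels cannot be told apart from the erythroid ones, which does not show that they are background. The same holds for Dll1 in radial glia, against 21.3 CPM (11.0 to 37.2) from 12 UMIs in a single erythroid nucleus, and for Jag1 in radial glia, against 23.1 (12.3 to 39.5). It also holds for Hes1 in intermediate progenitors and choroid plexus nuclei, against 35.5 (21.7 to 54.9). Dll1 in intermediate progenitors, Jag1 and Hes1 in endothelial nuclei and Hes5 in both progenitor classes lay above the erythroid intervals, the last against 16.0 (7.31 to 30.3). Neurons had lower levels than erythroid nuclei for each of the 3 receptors, so the erythroid level is not a floor that all classes share.

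**Figure D1:**
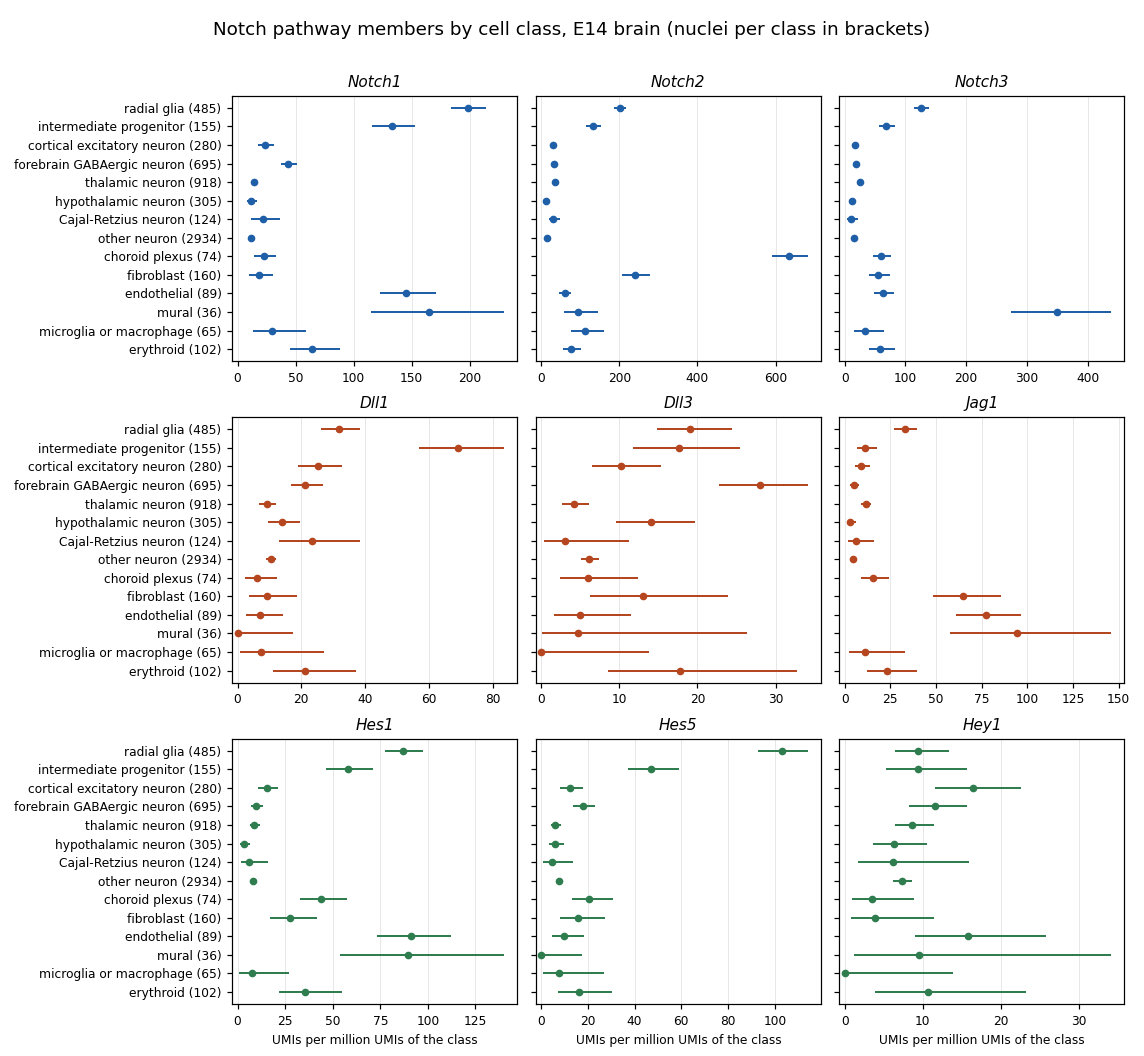
Level of each of the 9 genes in 14 cell classes of the E14 library, in UMIs per 1000000 UMIs of the class on a linear axis that differs between panels. Points are class sums, lines 95% exact Poisson intervals and brackets the number of nuclei; blue marks receptors, brown ligands and green targets. Notch2 stands out in choroid plexus nuclei (635), Notch3 in mural nuclei (350), Dll1 in intermediate progenitors (69.2) and Hes5 in radial glia (103).

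The first comparison set radial glia (485 nuclei, median 3728 UMIs) against all neurons (5256 nuclei, median 4489 UMIs) of the E14 library, which asks where the pathway is expressed along the step from stem cell to neuron. A gene was counted where its CPM ratio was 2 or more in either direction and it had at least 10 UMIs over both classes. Of the 9 genes, 8 were at least 2-fold higher in radial glia, against a background of 16.2% of the 20233 genes with enough UMIs, and 0 were at least 2-fold lower, against 14.3%. The receptors had ratios of 12.2 (10.9 to 13.6) for Notch1, 9.41 (8.47 to 10.5) for Notch2 and 7.30 (6.43 to 8.28) for Notch3. The target Hes5 had 12.0 times the neuronal level, a neuron to radial glia ratio of 0.0836 (0.0713 to 0.0979). Hes1 had a ratio of 10.0 (8.52 to 11.8) and the ligand Jag1 5.54 (4.36 to 7.02). The median log2 ratio was 2.87 over the 9 genes, 0.36 over the other pathway genes and 0.20 over all genes.

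Dll1 and Dll3 were nearer to the limit, at 2.48 (1.99 to 3.07) and 2.16 (1.63 to 2.84), and Hey1, at 1.11 (0.747 to 1.61), was not past it. When each nucleus was given equal weight, the Dll3 ratio was 0.949, and with marker lists that lacked their most abundant gene it was 0.962, so its direction depends on these choices. Without the nuclei that met only the pan-neuronal list, 6 of the 9 genes were past the limit. The share of all genes was not computed for that choice.

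At 1000 UMIs per nucleus, a Notch1 UMI was found in 18.1% (14.7 to 22.0) of 458 radial glia and 1.28% (0.980 to 1.64) of 4769 neurons, and a Hes5 UMI in 11.6% (8.79 to 14.9) and 0.776% (0.547 to 1.07). In the 65 microglia or macrophages, taken as background, the shares were 4.62% (0.962 to 12.9) for Notch1 and 3.08% (0.375 to 10.7) for Hes5, at a median depth of 3208 UMIs. Neither neuronal share stands above this background, and the Hes5 interval of radial glia overlaps with it too, while their Notch1 interval lies above it. With 65 nuclei the intervals of the background class are wide, and it held Notch1 itself, at 29.9 CPM (12.9 to 59.0). The overlaps therefore do not show that the neuronal or radial glia shares are background. For Dll1 the share was 2.40% (1.20 to 4.26) in radial glia and 1.17% (0.888 to 1.52) in neurons, with overlapping intervals. Unthinned, 50.5% of radial glia and 7.36% of neurons held a Notch1 UMI, and 33.0% and 4.38% a Hes5 UMI. The radial glia marker list itself stood at 3190 CPM in radial glia and 518 CPM in neurons, with all 8 markers present in both, and its part in the neuronal levels was not tested.

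Of 36 other pathway genes, 35 had enough UMIs; 6 were at least 2-fold higher in radial glia and 5 lower, which is close to the 16.2% and 14.3% of all genes and so no result about the list. Those higher were the fringe enzymes Lfng, at 16.5 times (13.0 to 21.1), and Mfng, at 3.18 times (2.55 to 3.94), which add sugars to the receptors, the target Nrarp, a feedback inhibitor, at 7.68 times (4.43 to 13.2), the target Hey2 at 5.02 times (2.69 to 9.08), the coactivator Maml2 at 4.65 times (4.45 to 4.87) and the receptor-cleaving protease Adam17 at 2.02 times (1.71 to 2.37). Those lower were the ligands Jag2, with a ratio of 0.314 (0.207 to 0.457), and Dlk2, at 0.356 (0.219 to 0.549), the neuronal Notch-like ligand Dner, at 0.414 (0.381 to 0.448), the ubiquitin ligase Neurl1a, at 0.408 (0.274 to 0.588), and the third fringe enzyme Rfng, at 0.497 (0.339 to 0.705). The 3 fringe genes therefore did not differ in a common direction.

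**Figure D2:**
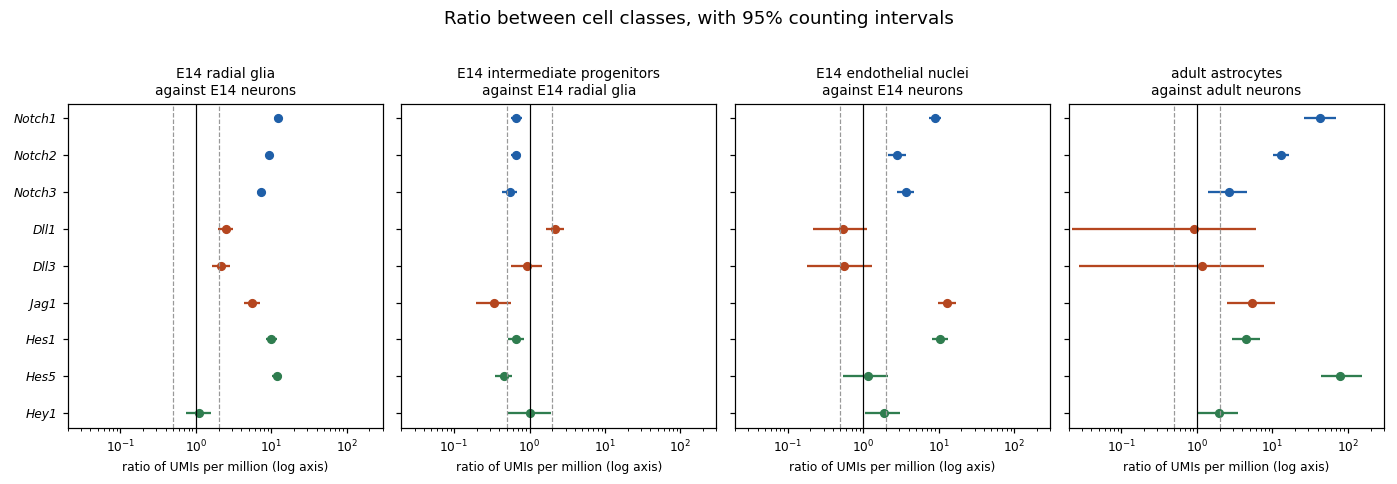
Ratio of CPM between 2 cell classes for each of the 9 genes in 4 comparisons, on a log axis; lines are 95% exact counting intervals, the solid line marks 1 and dashed lines 2-fold. Most genes lie right of 2 in radial glia (8 of 9), endothelial nuclei (5) and adult astrocytes (6) against neurons, while Dll1 alone lies right of 2 in intermediate progenitors against radial glia.

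The second comparison set intermediate progenitors (155 nuclei, median 6283 UMIs) against radial glia, the pair of classes between which Delta signalling is thought to pass. Dll1 was 2.18 times (1.65 to 2.87) as high in intermediate progenitors, and it was the only one of the 9 genes at least 2-fold higher, against 3.43% of 15233 genes. Jag1, with a ratio of 0.343 (0.196 to 0.568), and Hes5, at 0.458 (0.352 to 0.589), were at least 2-fold lower, against 8.62% of genes. The receptors Notch1 (0.672, 0.573 to 0.785), Notch2 (0.660, 0.563 to 0.772) and Notch3 (0.546, 0.438 to 0.675) and Hes1 (0.666, 0.522 to 0.845) had ratios under 1 that did not reach 2-fold. Under a margin of 4 times between lists, without likely doublets, with equal weight per nucleus and with a level floor of 30%, Notch3 was past 2-fold, down to 0.374. Dll3, at 0.921 (0.569 to 1.45), and Hey1, at 1.00 (0.504 to 1.90), had intervals that include 1. The median log2 ratio was -0.58 over the 9 genes and -0.05 over all genes.

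Intermediate progenitors still had 1160 CPM of the radial glia list, between the 3190 of radial glia and the 518 of neurons, and the part of that in their receptor and Hes levels was not tested. Against neurons, their Notch1 ratio was 8.17 (6.94 to 9.59) and their Hes5 ratio 5.48 (4.19 to 7.08). When classes came from clusters, the cluster with the most radial glia markers, whose leading list was that of another progenitor class, had more Dll1 than the clusters named intermediate progenitor, at a ratio of 0.664. The same clusters gave 1.35 for Notch2 and 1.37 for Hes1, so the directions of these 3 genes depend on how the classes are drawn. Dll3 ran from 0.230 with these clusters to 2.24 with equal weight per nucleus, so no direction can be given. Hes5 stayed lower, at 0.351 to 0.600 over 13 alternatives, but was not past 2-fold in 3 of them, and Jag1 ran from 0.155 to 0.531. The Dll1 ratio was 1.98 without likely doublets and also with at least 5 UMIs over 3 markers. Of 33 other pathway genes with enough UMIs, 1 was at least 2-fold higher, against 3.43% of all genes, and 1 lower, against 8.62%. Dll4 had a ratio of 3.74 (0.951 to 17.4) from 7 and 4 UMIs and Dlk1, a non-activating ligand-like protein, 0.432 (0.292 to 0.625), and the rest stayed under 2-fold. The proneural gene Neurog2 and the intermediate progenitor gene Eomes are markers of the class, so their levels were not compared.

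Within radial glia alone, the nuclei that held a Dll1 UMI were set beside those that held none. The 59 nuclei with a Dll1 UMI had a median of 9145 UMIs and the 426 without had 3377.5, so the split follows depth as well as Dll1. Dll3 was higher with Dll1, at 40.6 against 9.75 CPM, a ratio of 4.16 (2.45 to 7.25). The proneural factor Neurog2 had a ratio of 2.07 (1.07 to 3.98), Hes6, a Hes relative known to oppose Hes1, 2.39 (1.65 to 3.47) and Mfng 2.63 (1.78 to 3.89). Eomes had a ratio of 0.588 (0.234 to 1.31). Neurog2 and Eomes are on the intermediate progenitor marker list, so the class rule limits their levels in every split of radial glia. Hes5 was also higher in nuclei with Dll1, at 134 against 89.4 CPM (interval of the ratio 1.20 to 1.87), while Hes1 had 73.4 against 92.8 CPM (0.791, 0.601 to 1.03). Ventral radial glia, described below, were also deeper and had more Hes5, and the parts of depth and region in this ratio were not tested.

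Over radial glia and intermediate progenitors together, 121 nuclei held a Dll1 UMI and 519 did not, with medians of 9509 and 3640 UMIs. Dll3 had a ratio of 2.06 (1.34 to 3.20), and the share of all genes past 2-fold in this split was not computed. Neurog2 had a ratio of 2.35 (1.79 to 3.09) and Eomes 99.9 against 66.4 CPM (interval of the ratio 1.23 to 1.84). Neurog2 and Eomes are markers of intermediate progenitors, so in this pooled split they follow the mix of the classes. The 3 receptors lay between 0.949 and 1.19 and Hes5 at 1.15 (0.942 to 1.40). The parts of depth and of the class mix in these ratios were not tested. Split by a Hes5 UMI instead, with medians of 8407 and 3467 UMIs, Neurog2 had a ratio of 0.584 (0.446 to 0.764) and Eomes 0.556 (0.453 to 0.682), while Dll1 had 0.893 (0.678 to 1.18). In radial glia alone those ratios were 0.719 (0.374 to 1.38), 0.839 (0.426 to 1.67) and 1.22 (0.816 to 1.86), each with an interval that includes 1, and Dll3 had 2.62 (1.43 to 5.13). Medians there were 6590 UMIs with and 3082 without a Hes5 UMI.

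Radial glia were also divided by cell cycle and by region. The 294 nuclei with at least 2 UMIs of cell cycle markers (median 4910.5 UMIs) had 217 CPM of Notch1, against 111 in the 138 nuclei with none (median 2383.5), a ratio of 1.95 (1.46 to 2.65). For Notch2 the ratio was 1.08 (0.860 to 1.37), for Notch3 1.16 (0.862 to 1.60), for Hes1 0.938 (0.678 to 1.32) and for Hes5 1.33 (0.947 to 1.92). Dll3 had 22.7 CPM in cycling nuclei, from 62 UMIs, and 2.18 CPM in those with none, from 1 UMI (interval of the ratio 1.81 to 419). The number of cell cycle UMIs also follows depth, and its part was not tested.

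By region, 103 radial glia had more UMIs of the dorsal markers Emx1, Emx2, Dmrta2 and Dmrt3. Another 102 had more of the ventral markers Gsx1, Gsx2, Nkx2-1, Olig1, Olig2 and Six3. The medians were 4334 UMIs in dorsal and 6773.5 in ventral nuclei. Gsx1, Gsx2, Olig1 and Olig2 are also on the list of another progenitor class, so the class rule limits their levels in radial glia. The Hes targets differed in opposite directions. Hes1 had 123 CPM in dorsal and 61.7 in ventral nuclei, a ratio of 2.00 (1.48 to 2.71), while Hes5 had 90.4 and 138, a ratio of 0.654 (0.499 to 0.852). Notch2 was higher dorsally, at 1.52 times (1.24 to 1.86), and Dll3 and Jag1 ventrally, with dorsal to ventral ratios of 0.432 (0.217 to 0.810) and 0.574 (0.320 to 0.996). Notch1, Notch3 and Dll1 had ratios between 0.873 and 0.894 with intervals that include 1. Neurog2, known from dorsal progenitors, had a ratio of 8.63 (3.02 to 33.9), under the same limit of the class rule.

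**Figure D3:**
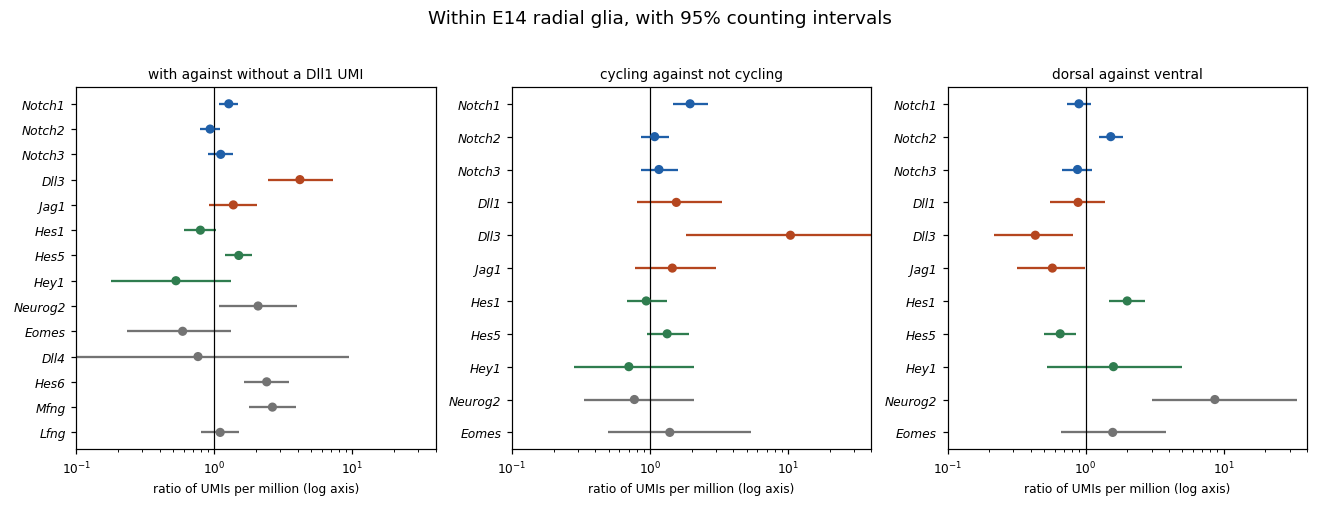
Ratios of CPM within E14 radial glia, on log axes, for nuclei with against without a Dll1 UMI (59 and 426 nuclei), cycling against not cycling (294 and 138) and dorsal against ventral (103 and 102). Lines are 95% exact counting intervals, which the ends of the axis shorten; grey marks genes outside the 9. Dll3 lies at 4.16 in the first panel, Notch1 at 1.95 in the second, and Hes1 (2.00) and Hes5 (0.654) lie on opposite sides of 1 in the third.

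The third comparison set endothelial nuclei (89 nuclei, median 5874 UMIs), the lining of blood vessels, against E14 neurons. At least 2-fold higher were 5 of the 9 genes, against 20.8% of 20113 genes, and 0 were at least 2-fold lower, against 24.7%. Jag1 had a ratio of 13.0 (9.85 to 16.9), Hes1 10.5 (8.23 to 13.3), Notch1 8.91 (7.37 to 10.7), Notch3 3.67 (2.79 to 4.76) and Notch2 2.82 (2.14 to 3.67). The endothelial Notch2 and Notch3 levels, 60.3 and 63.3 CPM, have intervals that overlap with those of the erythroid 76.4 and 58.6. Hey1, at 1.87 (1.05 to 3.09), Hes5, at 1.15 (0.545 to 2.14), Dll1, at 0.540 (0.216 to 1.12), and Dll3, at 0.559 (0.180 to 1.32), were within 2-fold. The median log2 ratio was 1.51 over the 9 genes and 0.26 over all genes. Against radial glia, Jag1 was 2.34 times (1.73 to 3.15) as high in endothelial nuclei, Notch1 had a ratio of 0.732 (0.608 to 0.877) and Notch2 0.300 (0.227 to 0.390).

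Of the other pathway genes, 13 of 35 were at least 2-fold higher, against 20.8% of all genes, and 6 lower, under the 24.7% of all genes. The genes with the highest ratios, Dll4 and Notch4, are known from vessels. Dll4, the endothelial Delta ligand, had 33.6 CPM (23.3 to 47.0) against 1.23 in neurons, a ratio of 27.3 (16.9 to 44.0). Notch4, the endothelial receptor, had a ratio of 25.9 (17.0 to 39.3), Heyl 20.5 (9.77 to 41.6), Lfng 11.7 (7.94 to 17.1), Nrarp 9.92 (4.37 to 20.5) and Mfng 4.38 (3.15 to 5.97). Hey2, Maml2, Numb, Adam10, Adam17, Jag2 and Aph1a had ratios between 2.08 and 5.62. Lfng, Nrarp, Mfng, Hey2, Maml2 and Adam17 were also at least 2-fold higher in radial glia against the same neurons, so they are not particular to vessels. Dner (0.272, 0.226 to 0.326), Rfng, Neurl1a, Dlk2, Aph1b and Hes7 were lower, the last with 0 UMIs in endothelial nuclei. Beside their own list at 4370 CPM, endothelial nuclei held 484 CPM of the radial glia list, against 518 in neurons.

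Mural nuclei differed from endothelial ones in the classes' other genes too. Heyl had 94.5 CPM (57.7 to 146) in mural and 13.8 (7.57 to 23.2) in endothelial nuclei, and Lfng 0, at most 14.2 CPM at 3 counts, against 38.6 (27.4 to 52.7). The mural to endothelial ratio was 1.14 (0.763 to 1.65) for Notch1, 1.22 (0.709 to 2.02) for Jag1 and 0.986 (0.568 to 1.63) for Hes1, so Notch3 was the only one of the 9 genes at least 2-fold higher there. Against neurons, fibroblasts had 11.2 times (9.52 to 13.2) the Notch2 and 10.9 times (7.84 to 14.9) the Jag1, with Notch1 at 1.11 (0.605 to 1.88). These pairs of classes were chosen after the values by class had been seen.

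By the likeness of their levels over the 13 E14 classes with at least 50 nuclei, the genes closest to each member among 13845 others were named. Mural nuclei, with 36, are not among these classes, so the likeness of Notch3 leaves out the class where it was highest. For Notch3 they were Hells, Mcm10 and Parpbp (Pearson r of log2 CPM plus 1 from 0.956 to 0.961), for Jag1 Afap1l2, Col18a1 and Kank2 (0.952 to 0.972), for Hes1 Mfge8, Sgo1 and Tcf7l1 (0.934 to 0.968) and for Notch2 Pbxip1, Phkb and Pard3b (0.939 to 0.969). For Notch1 they were Kif2c, Ubap2 and Pdcd11, for Dll1 Kmt2c, Trim2 and Vangl2, for Dll3 Smg8, Gpc6 and Polr3k, for Hes5 Tspan3, Cdc25b and Ninl and for Hey1 Ro60, Uprt and Ggps1, with r from 0.897 to 0.966. Among the 9 genes the highest correlation was that of Notch3 with Hes1, at 0.90, and the lowest that of Notch2 with Hey1, at -0.34. All points come from 1 library, so these values describe it and carry no error.

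In the adult library the same genes gave fewer UMIs: 209 of Notch1, 398 of Notch2, 233 of Notch3, 30 of Dll1, 26 of Dll3, 66 of Jag1, 212 of Hes1, 138 of Hes5 and 145 of Hey1. Receptors and targets had their highest levels in glia, among them the star-shaped astrocytes, and in vessels. Notch2 had 187 CPM (157 to 220) in astrocytes, with 142 UMIs in 61 of 140 nuclei and 18 in a single nucleus. Microglia or macrophages followed with 100 CPM (48.1 to 184), from 10 UMIs, and dentate granule neurons with 27.8 (23.1 to 33.2). Notch1 had 119 CPM (73.4 to 181) in endothelial nuclei and 100 (78.9 to 125) in astrocytes, which overlapped, and 60.0 (30.0 to 107) in oligodendrocyte precursors. In microglia or macrophages it had 60.2 CPM (22.1 to 131), from 6 UMIs. The 8 mural nuclei had 209 CPM (111 to 357), from 13 UMIs.

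Hes5 was highest in oligodendrocyte precursors, at 115 CPM (70.9 to 175) from 21 UMIs in 30 nuclei, and astrocytes, at 105 CPM (83.5 to 131) from 80 UMIs in 140 nuclei. At 1000 UMIs per nucleus, 0 of 29 precursors held a Hes5 UMI (up to 11.9%), although 33.3% did unthinned, so their share could not be told apart from that of astrocytes, 9.17% (4.67 to 15.8). The summed levels of both lay above the other classes, apart from the 8 mural nuclei, whose 2 UMIs gave 32.2 (3.89 to 116). Oligodendrocytes, the myelinating cells that the precursors give rise to, had 0 Hes5 UMIs over 256 nuclei, where 3 counts would be 3.36 CPM. The oligodendrocyte to astrocyte ratio was 0, with an exact interval up to 0.0402. Hes1 had 96.0 CPM (55.9 to 154) in endothelial nuclei and 39.5 (26.7 to 56.4) in astrocytes, with 145 (66.2 to 275) from 9 UMIs in the mural nuclei, and Hey1 50.8 CPM (23.2 to 96.5) in endothelial nuclei, from 9 UMIs, against 17.1 (9.11 to 29.3) in astrocytes. The endothelial to astrocyte ratio was 2.43 (1.26 to 4.55) for Hes1, 2.97 (1.12 to 7.51) for Hey1 and 0.161 (0.0325 to 0.487) for Hes5, the last from 3 endothelial UMIs.

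The ligands were sparse in the adult. Dll1 had 16.4 CPM (3.38 to 47.8) and Dll3 21.8 CPM (5.95 to 55.9) in oligodendrocyte precursors, from 3 and 4 UMIs, and 1 UMI each in astrocytes. In the 8 mural nuclei Dll3 had 48.2 CPM (9.95 to 141), from 3 UMIs in 1 nucleus. Jag1 was highest in mural nuclei, at 80.4 CPM (26.1 to 188) from 5 UMIs in 4 nuclei, which was 5.09 times (1.40 to 15.5) the 15.8 CPM (8.17 to 27.6) of astrocytes, from 12 UMIs, and it had 0 UMIs in oligodendrocytes. Notch3 had 531 CPM (365 to 745) in mural nuclei, where 33 UMIs lay in 8 of 8 nuclei, against 19.8 (11.1 to 32.6) in astrocytes and 5.65 (0.143 to 31.5) in endothelial nuclei. These 8 nuclei also held 8600 CPM of the endothelial list, against 13900 in endothelial nuclei, and the part of it was not tested. Of the adult Notch3 UMIs, mural nuclei held 14.2% and the 119 nuclei that could not be ranked 36.1%.

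**Figure D4:**
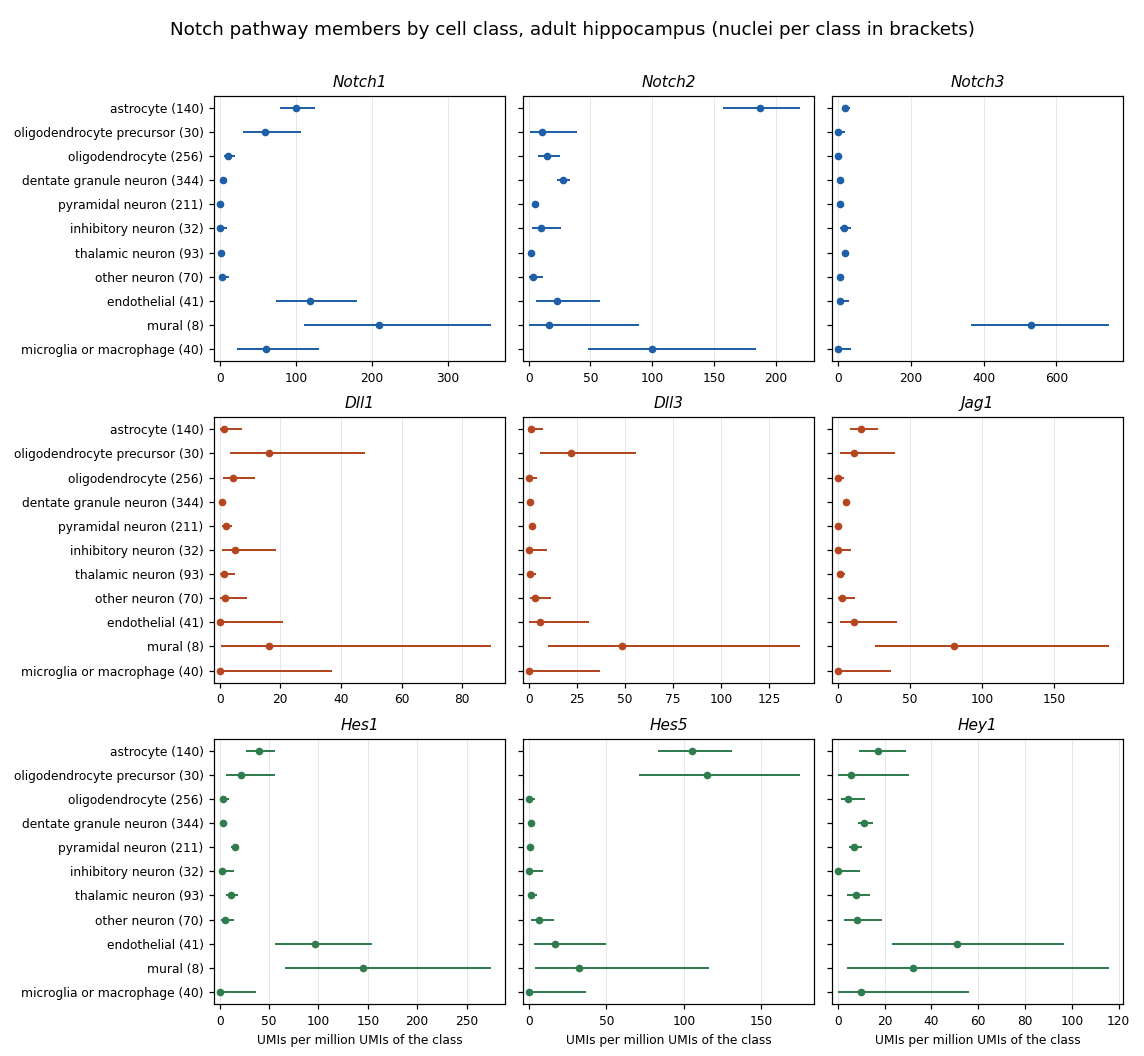
Level of each of the 9 genes in 11 cell classes of the adult hippocampus library, in UMIs per 1000000 UMIs of the class on linear axes that differ between panels. Points are class sums, lines 95% exact Poisson intervals and brackets the number of nuclei. Notch2 stands out in astrocytes (187), Notch3 in the 8 mural nuclei (531) and Hes5 in astrocytes (105) and oligodendrocyte precursors (115).

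The fourth comparison set astrocytes (140 nuclei, median 3888 UMIs) against adult neurons (750 nuclei, median 12506 UMIs). At least 2-fold higher were 6 of the 9 genes, against 20.8% of 16703 genes, and 0 were at least 2-fold lower, against 24.0%. Hes5 had a ratio of 79.6 (44.8 to 152), from 80 and 14 UMIs, Notch1 42.4 (26.6 to 69.5), Notch2 13.1 (10.3 to 16.6), Jag1 5.39 (2.52 to 10.8), Hes1 4.54 (2.90 to 6.93) and Notch3 2.65 (1.41 to 4.63). Hey1 had a ratio of 1.95 (1.000 to 3.50), and Dll1 and Dll3, with 1 UMI each in astrocytes, had 0.929 (0.0221 to 6.04) and 1.16 (0.0272 to 7.85). The median log2 ratio was 2.20 over the 9 genes and 0.11 over all genes. The Hes5 ratio ran from 14.6 with equal weight per nucleus to 187 without a floor on marker levels.

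At 1000 UMIs per nucleus, 15.8% of 120 astrocytes (9.81 to 23.6) held a Notch1 UMI, 15.8% (9.81 to 23.6) a Notch2 UMI and 9.17% (4.67 to 15.8) a Hes5 UMI. In 705 neurons the shares were 0.142% (0.00359 to 0.788), 1.42% (0.682 to 2.59) and 0.426% (0.0878 to 1.24), and in 237 oligodendrocytes, as background, 0.422% (0.0107 to 2.33), 0.844% (0.102 to 3.01) and 0 (up to 1.54). The 3 shares of neurons overlapped with this background. Unthinned, 56 of 140 astrocytes held a Notch1 UMI, 43.6% a Notch2 UMI and 35.0% a Hes5 UMI. At this depth the shares of Notch3, 0.833% in astrocytes and 0.851% in neurons, could not be told apart.

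Among the 29 other pathway genes with enough UMIs, 6 were higher in astrocytes and 5 lower, no more than the 20.8% and 24.0% of all genes would give, so the genes named here are single values. Lfng, at 59.3 CPM (43.2 to 79.3) against 0.378 in neurons, had a ratio of 157 (57.2 to 600), Nrarp 24.4 (6.20 to 114), Hey2 6.97 (1.54 to 26.0), Hes6 3.67 (1.63 to 7.50), Maml2 2.62 (2.43 to 2.82) and Psenen, a subunit of the protease that frees the intracellular part, 2.10 (1.39 to 3.07). Jag2 (0.172, 0.0207 to 0.631), Dlk2 (0.164, 0.0197 to 0.601), Maml3 (0.470, 0.372 to 0.588), Numbl and Rfng were lower. Lfng, Nrarp, Hey2 and Maml2 were also higher, and Jag2, Dlk2 and Rfng also lower, in E14 radial glia against E14 neurons. The share of all genes that went the same way in both comparisons was not computed, so this overlap is a description. The astrocyte marker list stood at 13300 CPM in astrocytes and 646 in neurons, and the pan-neuronal list at 4120 CPM in astrocytes.

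Adult neurons differed among themselves. Dentate granule neurons (344 nuclei) had 5.39 times (3.31 to 9.26) the Notch2 of pyramidal neurons (211 nuclei), at 27.8 against 5.16 CPM, and 26 Jag1 UMIs against 1. Pyramidal neurons had more Hes1, at 15.2 CPM (11.5 to 19.8) against 3.59 (2.05 to 5.83), a dentate to pyramidal ratio of 0.236 (0.126 to 0.417). Thalamic neurons had 18.9 CPM (12.4 to 27.5) of Notch3, above the 4.94 (3.09 to 7.48) of dentate granule neurons. This pair of classes was also chosen after its values had been seen. Set side by side without comparison, Notch2 had 201 CPM in E14 radial glia and 187 in adult astrocytes, Hes5 103 and 105, Notch1 199 and 100, Hes1 86.9 and 39.5 and Notch3 126 and 19.8, and the libraries differ in tissue, age and Cell Ranger version, which cannot be told apart.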

How the data were processed

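Slide-tags single-nucleus RNA-seq of an adult hippocampus and an E14 brain was analysed, 1 library each. For both, the authors aligned to mm10, kept intronic reads and deposited raw counts of UMIs. Cell Ranger was 6.1.2 (adult) and 7.0.1 (embryo) per the file headers. CellBender background removal is named in the methods for the embryo, but the header points to Cell Ranger output, which was taken to precede it.

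Nuclei needed 500 UMIs or more and less than 5% mitochondrial UMIs. A nucleus joined a class when at least 3 UMIs over at least 2 markers of its list were present, observed over expected UMIs led the next list by 2 times, and the list stood at 20% or more of its mean level in the 30 nuclei (of at least 1000 UMIs) where it was highest. The 20% floor was added after class sizes under a rule without it had been seen. Nuclei that met no list were tried on a pan-neuronal list. Doublets were kept, since the methods name no removal. Class sums were compared as CPM ratios with exact conditional intervals, and shares, after thinning to 1000 UMIs without replacement, with exact binomial intervals, both at 95%. A count of 0 was taken to allow 3 counts. The functions were tested on simulated data, and Python 3.11.15, scipy 1.17.1 and scanpy 1.11.5 were used. With 1 library per tissue there are no replicates to average or leave out, so no test was made.

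The 9 genes, the marker lists and the 36 other pathway genes were chosen with earlier results of these data known, so the pattern of any list is a description. Named genes are the 9, the pathway genes at least 2-fold different, Neurog2 and Eomes beside Dll1, and for each of the 9 the 3 genes most like it among those with at least 200 UMIs. One further gene of that rule and the small embryonic class named for it are not reported here, and the 4 fibroblasts of the adult were not described.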

Additional observations from a re-analysis of the deposited data

How the results depend on the processing

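The alternatives changed the class rule, the nuclei kept, the weighting, the lists or the classes themselves, 1 at a time; the level floors, the neurons without the pan-neuronal list alone and the cluster taken as radial glia were added after the data had been seen. The number of the 9 genes at least 2-fold different stayed within 1.5 times for radial glia against neurons (6 to 8, from 8), endothelial nuclei (5 to 7, from 5) and astrocytes (6 to 9, from 6). For intermediate progenitors against radial glia it went from 3 to 5 with equal weight per nucleus, to 1 with a level floor of 10% and to 5 with a floor of 30%, and its shares of nuclei had 4 genes without overlap at 2000 UMIs in place of 1 at 1000. The same counts over all genes were not computed under these settings. These counts therefore describe the settings and are no result about the 9 genes. Dll3 in radial glia against neurons reversed to 0.949 with equal weight and 0.962 with lists without their most abundant gene, and Dll1 in intermediate progenitors against radial glia to 0.664 with the cluster that held the most radial glia markers; the causes were not tested. With that cluster Notch2 went from 0.660 to 1.35 and Hes1 from 0.666 to 1.37, and Dll3 ran from 0.230 to 2.24 over the alternatives. The 2-fold call of Notch3 changed in 4 of 13 alternatives and that of Hes5 in 3. In endothelial nuclei against neurons Dll1 ran from 0.248 to 1.12, Dll3 from 0.354 to 1.44 and Hes5 from 0.876 to 2.55, and in astrocytes Hey1 from 1.23 to 2.74, Dll1 from 0 to 2.92 and Dll3 from 0 to 2.26. No cluster was led by the radial glia list, so the planned cluster alternative gave no value there. Genes with at least 50 UMIs had a lower background, 13.6% higher in radial glia, and genes with at least 1 a higher one, 17.7%. Depth limits Dll1 and Dll3 in the adult, with 30 and 26 UMIs, and classes of under 50 nuclei. No paired analysis was possible because each tissue has 1 library.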
